A study of Mus musculus with 9 samples.

Results

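The immunoglobulin rows of a bone marrow (BM) RNA-seq count table were analysed by locus. They are the rows whose names begin with the symbols of heavy, kappa or lambda segments, without the DNA-binding protein gene Ighmbp2, and they were selected on measured values: a row needed at least 10 counts summed over the 9 mice. Of the 53172 rows of the table, 393 have such a name and 52 had enough counts, of which 34 are heavy, 15 kappa and 3 lambda. No count was listed in any mouse for 229 of the 393. At the edge of the selection, Igkv3-1, Ighv1-55 and Ighv1-58 were just inside with 10 counts each, while Ighd with 9 and Igkv2-116 and Ighv1-46 with 8 were just outside.

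BM was taken from 3 mice in each of 3 groups. BMT mice were adult C57BL/6J recipients (CD45.2) that were irradiated with 9.5 Gy and received 500000 BM cells the next day from donors marked by CD45.1 or ZsGreen, and CDSCs mice were irradiated alike and received 500000 enzyme-isolated cells of neonatal costal cartilage from donors of the same kind. BM was collected 2 weeks after transplantation, and Health mice were age-matched, unirradiated and untransplanted. The cartilage isolate is a mixture that also holds a few hematopoietic stem and progenitor cells, and the libraries do not separate donor cells from those the irradiated host still had. The study's methods describe equal amounts of CD45+ and CD45- cells merged after sequencing, whereas the labels describe all BM cells. Replicates are separate mice, and total counts lay between 8741155 and 10181289 per mouse. In bulk RNA, fewer B cells and less immunoglobulin RNA per cell cannot be told apart.

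An antibody is built from heavy chains and from kappa or lambda light chains. A developing B cell in the BM joins one variable, one diversity and one joining segment of the heavy locus, then one variable and one joining segment of a light-chain locus, and splices the joined exon to a constant segment. Heavy constant segments give the class of the antibody: Ighm encodes IgM, the first class made, Ighd IgD, and Ighg1, Ighg2b, Ighg2c and Ighg3 the IgG subclasses made after class switching. Plasma cells, the antibody-secreting end stage, hold immunoglobulin transcripts in large amounts. In the C57BL/6J mouse the heavy locus lies on chromosome 12, kappa on chromosome 6 and lambda on chromosome 16.

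Variable segments gave 19 of 183 names in the heavy locus, 14 of 160 in kappa and 2 of 3 in lambda. Constant segments gave 4 of 8 heavy names (Ighg1, Ighg2b, Ighg3 and Ighm), Igkc, the only kappa constant segment, and Iglc1, 1 of 4 lambda constant names. None of the 4 heavy, 5 kappa and 5 lambda joining names reached 10 counts, so no joining row could be summed: their totals over all mice were 3, 18 and 12 counts. The remaining 11 members are diversity segments, out of 20 names.

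The diversity rows are shown by their sequences because they carry 14767 of the 32936 heavy counts and because several cannot be told apart by sequence. All lie on the minus strand of chromosome 12, between positions 113448214 and 113466043 (GRCm38, sequences from the GENCODE M21 transcripts). They are written 5′ to 3′, and capitals mark bases that differ among the rows of the same length.
Ighd5-3: gaAtacctac
Ighd5-4: gaAtacctac
Ighd5-5: gaCtacctac
Ighd5-6: tggaatacctac
Ighd3-2: agacagctcaggctac
Ighd2-5: CctactatAgtAacTac
Ighd2-6: CctactatAgtAacTac
Ighd2-7: TctactatGgtTacGac
Ighd2-8: TctactatGgtAacTac
Ighd5-7: agGcagctagcctctgcagtgccacaacc
Ighd5-8: agAcagctagcctctgcagtgccacaacc

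Ighd5-3 and Ighd5-4 share 1 sequence of 10 bases, Ighd2-5 and Ighd2-6 share 1 of 17 bases, and Ighd5-7 and Ighd5-8 differ at 1 of 29 bases. Each row is 10 to 29 bases long, so a read counted on it extends well beyond it. As many variable segments are near copies of each other too, the split of counts among single rows is uncertain, and since no strand setting is given in the sources used here, a row cannot be told apart from transcripts of the other strand.

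The names were checked against the counts. The length implied by each row's count and TPM was within 2% of its GENCODE M21 exon length for all 52 members and for 96.2% of 26969 rows that could be checked, so each name carries the length of its own segment. Several amounts did not match what the names stand for in BM. Ighm was listed with 14 counts in the 9 mice together, 10 of them in CDSCs 1, Ighd with 9 and Igha with 2, whereas Ighg1 was listed with 10132. Among the B-lineage markers, Vpreb1 and Igll1 were at 0 in every mouse, and of 7 plasma cell markers Xbp1 was at 0. Other rows of these lists did have counts: Pax5 was listed with 38124, Cd22 with 26469, Cd79b with 7217 and the plasma cell marker Jchain with 721.

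The positions of the rows with counts were therefore compared with annotated exons in each region, from 500000 bases before the locus to 500000 bases after it. All rows of a region were moved together along the chromosome in steps of 50 bases, and at each step the share of rows with at least 10 counts was compared between rows on and off an exon of a protein-coding or immunoglobulin gene. At the annotated positions the difference was 13.3 percentage points in the heavy region and -0.467 in the kappa region. With rows moved 36350 bases to lower coordinates, 40 of 41 heavy-region rows on an exon (97.6%) had at least 10 counts, against 33 of 261 off an exon (12.6%). With a move of 23000 bases, 16 of 16 kappa-region rows on an exon had at least 10 counts, against 19 of 229 off an exon (8.30%). These differences of 84.9 and 91.7 points exceeded the best value more than 5000 bases away, 67.3 and 70.7, with offsets within 5000 bases of 0 left out. The median over all offsets was 32.6 points in the heavy and 20.3 in the kappa region. In the lambda region the best offset gave 63.9 points and the next 58.4, and the same scan did not recover a simulated offset there, so no lambda row was read by position. Rows outside these 3 regions were not examined in this way, and whether names and counts also part elsewhere in the table was not tested.

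**Figure D1:**
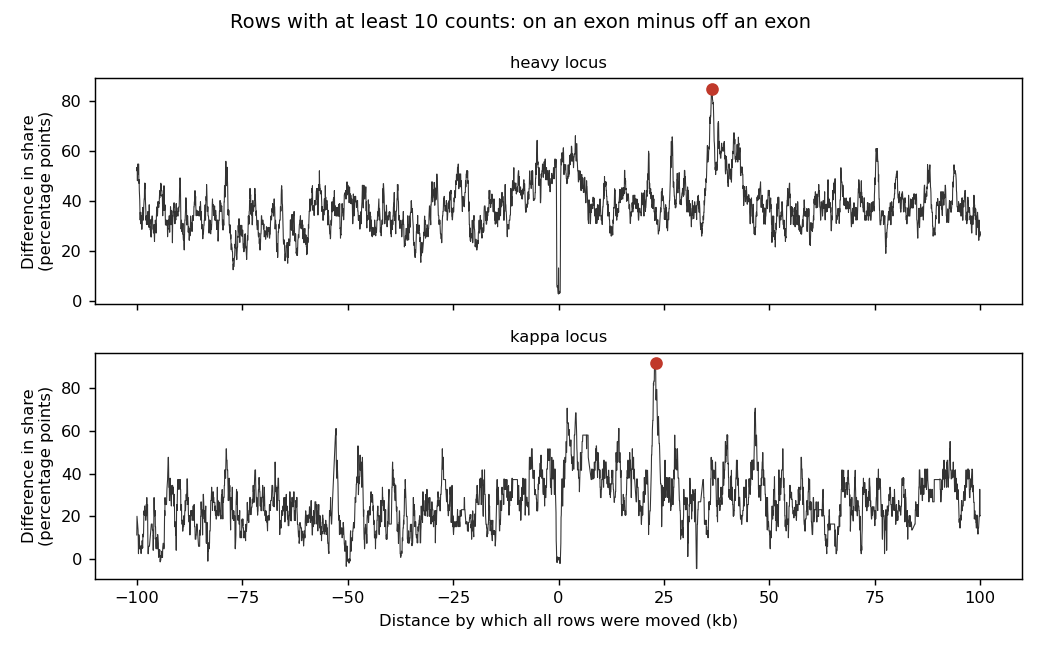
Difference between the share of rows with at least 10 counts on an exon and off an exon (percentage points) against the distance in kb by which all rows of the heavy region (top) or kappa region (bottom) were moved. The red points mark the highest values, 84.9 points for the heavy and 91.7 for the kappa region, away from distance 0.

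Read in this way, 12 of the 13 variable and constant heavy or kappa members with at least 100 counts overlapped an immunoglobulin exon of another name by at least 1 base, and 8 of the 25 with fewer counts did. These counts describe the rows and are no separate check of the offsets, which were chosen on the counts of the same rows. The row Ighg1, annotated at chr12:113325240-113330523 (GRCm38, minus strand), overlapped an exon of Ighg2c by 43 of its 2592 exon bases. The row Igkc, annotated at chr6:70726435-70726966 (plus strand), overlapped Igkv3-1 by 99 of its 532 bases. Below, a row said to lie on an exon overlapped it at least in part. For each row the exon at the moved position is given below as a description. A count printed beside a segment name is the count of that row and may not be the level of that segment. The sums over a locus are likewise sums of the rows with those names.

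The kappa rows together were lower in CDSCs than in both other groups, with no overlap. Their summed level in CPM (counts divided by the library total in units of 1000000 counts, scaled by TMM) was 116, 67.4 and 123 in the BMT mice, 39.6, 25.2 and 39.2 in the CDSCs mice, and 56.4, 87.6 and 70.5 in the Health mice. The difference between group means on the log2 scale was -1.05 ± 0.28 (SE, n = 3 and 3 mice) for CDSCs against Health and -1.54 ± 0.35 for CDSCs against BMT. BMT and Health overlapped, with a difference of 0.49 ± 0.33. Leaving out each mouse in turn kept the difference from Health between -1.21 and -0.84, and these sums were not tested. With rows chosen by moved position instead of by name, the groups overlapped: CDSCs 1 stood at 325 CPM, within Health (301 to 343) and above BMT 2 (256), and the difference from Health was -1.13 ± 0.62. That sum took rows on either strand. The rows Gm6157, with 12126, and Gm9728, on the opposite strand to its exon, with 9200, held most of its 27927 counts.

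The heavy rows together did not separate the groups. The summed heavy level was 516, 272 and 557 CPM in BMT, 729, 158 and 114 in CDSCs, and 361, 251 and 445 in Health. CDSCs against Health differed by -0.54 ± 0.86 on the log2 scale and BMT against Health by 0.32 ± 0.41. Mouse CDSCs 1 had the highest heavy sum of the 9 mice and 6240 of the 14767 diversity counts, and without it the CDSCs difference from Health was -1.35. With TPM, which weights the short diversity rows most, the direction turned to 0.54 ± 0.97. In CPM without the row Ighg1 the difference was 0.07 ± 0.87, and without the diversity rows, an alternative chosen after seeing the data, it was -1.66 ± 0.73. With rows chosen by moved position, also after seeing the data, it was -1.42 ± 0.56, and CDSCs and Health still overlapped.

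Within the heavy locus, the constant rows made up 43.3% ± 6.2 (SD, n = 3) of the counts in BMT, 7.5% ± 4.2 in CDSCs and 37.4% ± 17.5 in Health. The share of the diversity rows was 25.9% ± 7.0 in BMT, 69.8% ± 16.3 in CDSCs and 37.3% ± 21.8 in Health. The variable rows took 30.8% ± 7.7, 22.7% ± 13.4 and 25.3% ± 16.6. So the constant share of every CDSCs mouse, 3.6% to 11.9%, was under that of every Health mouse, 20.5% to 55.5%, while the variable shares overlapped. The diversity shares of CDSCs and Health overlapped too, with CDSCs 3 at 51.7% and Health 2 at 61.6%. Every CDSCs mouse was above every BMT mouse in that share, 21.3% to 34.0% in BMT.

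**Figure D2:**
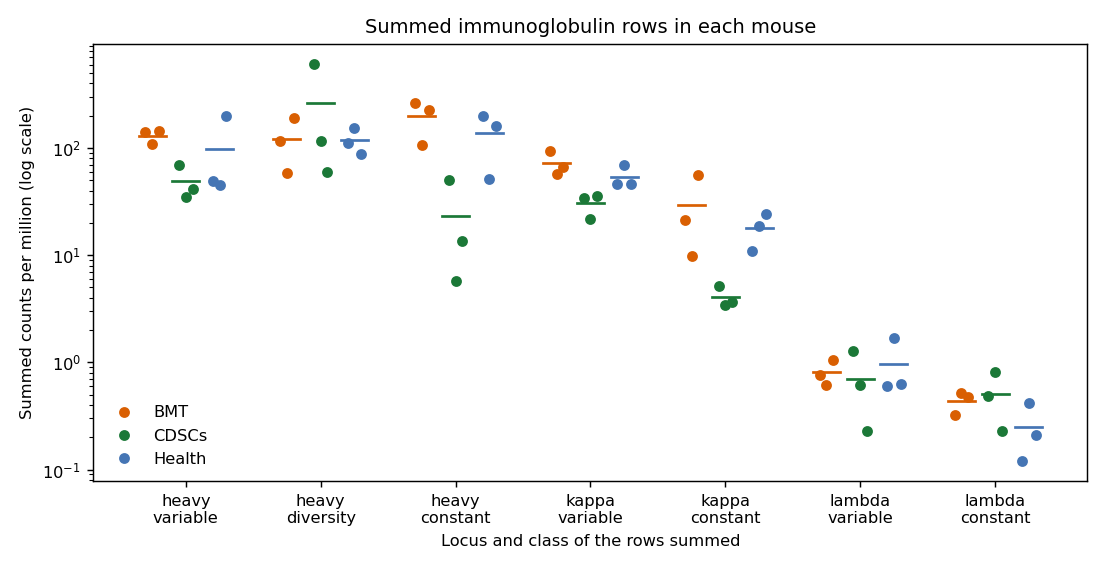
Summed CPM (log axis) of the rows of each locus and class, with 1 point per mouse and a line at the mean of each group of 3. The CDSCs points lie under all BMT and Health points for the heavy constant, kappa variable and kappa constant sums, and 1 CDSCs mouse stands at 609 CPM in the heavy diversity sum.

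Of the constant rows, only Ighg1 and Igkc had enough counts to be tested, and both were lower in CDSCs than in Health, by calls that were lost in 7 (Ighg1) and 4 (Igkc) of 9 fits that left out 1 mouse each. The row Ighg1 held 99.4% of the heavy constant counts. It was counted at 260, 105 and 224 CPM in BMT, 48.6, 5.37 and 13.4 in CDSCs, and 200, 51.3 and 160 in Health. Every CDSCs mouse was under every mouse of the other groups, and the highest CDSCs mouse lay close to the lowest Health mouse. By the quasi-likelihood test of edgeR, adjusted after Benjamini-Hochberg, the log2 fold change against Health was -2.61 ± 0.74 (SE, adjusted p = 0.0376). Against BMT it was -3.12 ± 0.75, which missed the threshold of 0.05 by the same edgeR test (adjusted p = 0.0811). BMT against Health gave 0.52 ± 0.69 (adjusted p = 0.759). Without CDSCs 1 the value against Health was -3.87 and that against BMT was -4.39, which passed the edgeR test (adjusted p = 0.0251).

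The row Igkc, named for the constant part of every kappa chain and moved onto Igkv3-1, stood at 21.4, 9.81 and 56.2 CPM in BMT, 5.17, 3.45 and 3.64 in CDSCs, and 10.8, 18.9 and 24.0 in Health. The 3 CDSCs mice lay close together and under all 6 other mice. The edgeR log2 fold change against Health was -2.13 ± 0.57 (adjusted p = 0.0313), and against BMT -2.83 ± 0.58 (adjusted p = 0.0539; -1.91 without BMT 3). The other constant rows were near the limit of detection and were not tested. Ighg2b had 21 counts over the 9 mice, Ighg3 24, Ighm 14 and Iglc1 35, against a floor of 3 counts, or 0.286 to 0.357 CPM per mouse.

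The sums of the diversity rows overlapped between all 3 groups. Their sum was 116, 57.9 and 189 CPM in BMT, 609, 117 and 59.1 in CDSCs, and 111, 155 and 87.0 in Health. Mouse CDSCs 1 alone was above all others, and the remaining CDSCs mice fell within the range of BMT. The log2 difference of CDSCs from Health was 0.50 ± 1.03, and without CDSCs 1 it was -0.46. The deposited TPM of Ighd5-4 had a mean of 7239 ± 4065 in BMT, 15645 ± 18249 in CDSCs and 5011 ± 1432 in Health (SD, n = 3). As TPM divides by the 10 bases of this row, on which no read can lie whole, it was not compared with the level of longer rows.

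When moved, the 11 diversity rows came to lie in 3 places of the heavy locus. Ighd3-2, Ighd5-6 and Ighd2-8 fell inside the gene Ighd, the last on an exon. Ighd5-5 fell on an exon of Ighm and Ighd2-7 in an intron of Ighm. The other 6 fell upstream of Ighm, 784 to 6947 bases from its start and up to or among the joining segments. These 6 rows together gave 93.5, 47.9 and 154 CPM in BMT, 534, 99.8 and 50.3 in CDSCs, and 60.1, 100 and 56.4 in Health. In CDSCs 1, 534 of the 609 CPM of the diversity sum came from this stretch.

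Ighd2-8 was the tested diversity row with a value under 0 in CDSCs against Health. It was counted at 6.50, 2.79 and 13.7 CPM in BMT, 17.8, 5.37 and 2.73 in CDSCs, and 32.1, 30.7 and 16.3 in Health. All BMT mice were under all Health mice, while CDSCs 1 overlapped the lowest Health mouse. The edgeR log2 fold change against Health was -1.77 ± 0.67 for BMT (adjusted p = 0.210; -2.47 without BMT 3 and -1.34 without BMT 2) and -1.60 ± 0.66 for CDSCs (adjusted p = 0.123). Without CDSCs 1 the latter became -2.68 ± 0.60 and passed the edgeR test (adjusted p = 0.0128). Ighd2-6 had the lowest p of the remaining diversity rows. It was counted at 7.36, 4.23 and 10.2 CPM in BMT, 44.4, 9.33 and 3.75 in CDSCs, and 5.60, 6.19 and 3.06 in Health. Its log2 fold change for CDSCs against Health was 1.96 ± 0.75 (edgeR adjusted p = 0.0998), without CDSCs 1 it was 0.42, and all 3 groups overlapped.

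Heavy variable rows, which supply most of the antigen contact of the heavy chain, were lower in every CDSCs mouse than in every BMT mouse when summed. The sum was 141, 108 and 143 CPM in BMT, 69.9, 35.1 and 41.6 in CDSCs, and 49.4, 44.8 and 197 in Health. CDSCs against BMT differed by -1.47 ± 0.33 on the log2 scale. Against Health the difference was -0.70 ± 0.75, with Health 3 far above the other Health mice, and without Health 3 it was -0.01.

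Ighv5-9, on an exon of Ighv5-6 when moved, was the heavy variable row with the most counts and the one that set Health 3 apart. It had 59.3, 39.1 and 67.5 CPM in BMT, 33.6, 8.41 and 18.4 in CDSCs, and 26.1, 16.5 and 162 in Health. Its edgeR log2 fold change for CDSCs against Health was -1.76 ± 0.77 (adjusted p = 0.144), without Health 3 it was -0.08, and for CDSCs against BMT -1.46 ± 0.77 (adjusted p = 0.341; -2.05 without CDSCs 1). Ighv10-3, on Ighv1-4 when moved, was highest in BMT. It had 35.7, 40.2 and 20.1 CPM in BMT, 8.39, 2.23 and 9.78 in CDSCs, and 7.74, 8.49 and 15.5 in Health. Every BMT mouse was above every other mouse. The edgeR log2 fold change was 1.59 ± 0.47 for BMT against Health (adjusted p = 0.118) and -2.24 ± 0.48 for CDSCs against BMT (adjusted p = 0.0603).

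Ighv1-65, on Ighv1-63 when moved, had the lowest p of the members in BMT against Health. It was counted at 22.8, 13.1 and 23.7 CPM in BMT, 12.9, 19.8 and 9.33 in CDSCs, and 6.07, 10.1 and 9.70 in Health. BMT was above Health in all mice, at a log2 fold change of 1.20 ± 0.33 (edgeR adjusted p = 0.0956). Ighv1-62-3, which met no exon when moved, had 1.84, 2.99 and 9.83 CPM in BMT, 3.71, 1.82 and 0.46 in CDSCs, and 0.83, 0.52 and 0.95 in Health. Its edgeR log2 fold change for BMT against Health was 2.66 ± 0.79 (adjusted p = 0.121), and without BMT 3 it was 1.68. Ighv1-36, on the pseudogene Ighv1-33 when moved, had 6.82, 7.23 and 2.67 CPM in BMT, 7.41, 0.20 and 1.02 in CDSCs, and 2.50, 1.26 and 1.48 in Health. BMT was above Health in all mice here too, at 1.67 ± 0.89 (edgeR adjusted p = 0.382).

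Kappa variable rows, when summed, were lower in every CDSCs mouse than in every mouse of the other groups. Their sum was 94.3, 57.6 and 67.0 CPM in BMT, 34.4, 21.8 and 35.6 in CDSCs, and 45.6, 68.7 and 46.5 in Health. The log2 difference was -0.82 ± 0.30 for CDSCs against Health and -1.26 ± 0.31 for CDSCs against BMT. Igkv1-99, Igkc, Igkv2-107, Igkv6-13 and Igkv13-57-2 held 29.7%, 25.0%, 20.7%, 12.8% and 8.46% of the kappa counts, and the fifth kappa variable row by counts, Igkv10-94, had 33 counts and was not tested.

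Igkv6-13, on Igkv6-14 when moved, was the only variable row that passed the test, and it was lower in CDSCs. It was counted at 7.47, 13.8 and 9.92 CPM in BMT, 3.51, 4.87 and 0.91 in CDSCs, and 14.2, 5.35 and 20.6 in Health. The highest CDSCs mouse was just under the lowest Health mouse. The log2 fold change against Health was -2.09 ± 0.57 (edgeR adjusted p = 0.0333), a call kept in 4 of 9 fits that left out 1 mouse each. Against BMT it was -1.73 ± 0.57 (edgeR adjusted p = 0.154). Igkv2-107, on Igkv2-109 when moved, had 41.1, 20.6 and 12.9 CPM in BMT, 6.73, 3.04 and 8.19 in CDSCs, and 15.0, 14.3 and 9.90 in Health. All CDSCs mice were lowest, at -1.13 ± 0.45 against Health (edgeR adjusted p = 0.113) and -2.05 ± 0.45 against BMT (adjusted p = 0.0629).

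The remaining kappa rows overlapped between CDSCs and Health. Igkv1-99, on Igkv14-100 when moved, had 38.4, 15.8 and 23.7 CPM in BMT, 15.4, 4.26 and 24.1 in CDSCs, and 12.0, 42.4 and 11.5 in Health. Igkv13-57-2, which met Igkv4-58 on the opposite strand when moved, had 6.28, 5.78 and 17.1 CPM in BMT, 4.10, 8.62 and 1.14 in CDSCs, and 2.14, 4.30 and 1.90 in Health. It was the kappa row highest in BMT against Health, at 1.80 ± 0.66 (edgeR adjusted p = 0.201; 1.15 without BMT 3).

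**Figure D3:**
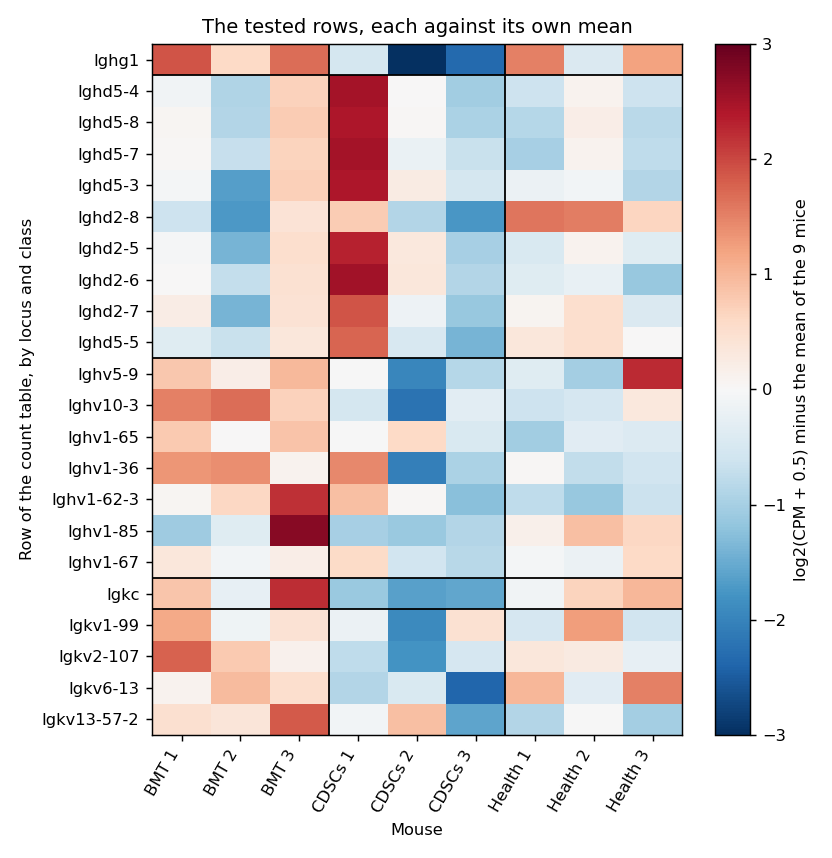
Level of the 22 tested rows in each mouse, as log2(CPM + 0.5) minus the mean of the 9 mice for that row, with rows ordered by locus and class and mice by group. CDSCs 1 is high for the diversity rows, and the rows Ighg1, Igkc, Igkv2-107 and Igkv6-13 are below their mean in all 3 CDSCs mice.

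Rows named for lambda light chains, a small part of the mouse repertoire, had few counts, and their positions could not be read. Iglv1 had 60 counts over the 9 mice, Iglc1 35 and Iglv2 12. The summed level was 1.08, 1.14 and 1.53 CPM in BMT, 1.76, 1.42 and 0.455 in CDSCs, and 0.714, 2.10 and 0.843 in Health. All 3 groups overlapped, and CDSCs against Health differed by -0.05 ± 0.77 on the log2 scale. Without CDSCs 3 the difference was 0.55, and without CDSCs 1 it was -0.43.

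Single rows were tested against all rows of the table. Of the 52 members, 22 passed the filter on low counts: 9 diversity, 11 variable and 2 constant rows. In CDSCs against Health, 3 of the 22 were called lower (Igkc, Igkv6-13 and Ighg1) and 0 higher, 13.6% in all, against 17% of the 12572 rows tested by edgeR, of which 8.69% were higher and 8.28% lower. At an unadjusted p under 0.05 there were 6 lower and 2 higher members, beside 32.9% of all rows. DESeq2, fitted to all 52 members, called 3 lower and 0 higher (15.7% of all rows). The likelihood ratio test called 3 lower and 1 higher of the 22 (21.1%). The 3 calls rested on small margins: leaving out 1 mouse at a time in 9 fits, Igkc was called in 5, Igkv6-13 in 4 and Ighg1 in 2. The call of Igkc was lost without CDSCs 2, CDSCs 3, Health 2 or Health 3. That of Igkv6-13 was lost without BMT 1, BMT 2, BMT 3, Health 1 or Health 3, and that of Ighg1 was kept only without CDSCs 1 or Health 2. Without CDSCs 3 there were 4 higher members, the diversity rows Ighd5-4, Ighd5-7, Ighd5-8 and Ighd2-6, and 1 lower. Without BMT 1, BMT 2, CDSCs 2 or Health 1 there was 1 lower. Without BMT 3 there were 2, Igkc and the added row Ighv1-85, and without Health 2 there were 2. Without CDSCs 1 there were 4, with Ighd2-8 added, and without Health 3 there were 0. The same 9 fits called between 1071 and 2640 of all rows, with the lowest number without Health 1 and the highest without CDSCs 1.

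In BMT against Health, 0 of the 22 members were called by edgeR, where 2.44% of all tested rows were. At an unadjusted p under 0.05, 4 were higher and 1 lower, beside 16.8% of all rows. DESeq2 and the likelihood ratio test each called 3 higher, of 52 and 22 members, where they called 4.13% and 5.56% of all rows. In CDSCs against BMT, 0 of the 22 were called, against 1.03% of all rows. At an unadjusted p under 0.05, 6 were lower and 0 higher, beside 18.6% of all rows. DESeq2 called 7 of 52 members lower and the likelihood ratio test 5 of 22. They called 4.08% and 5.81% of all rows, 571 and 730 against 129 by the quasi-likelihood test. With no filter on low counts, 9, 18 and 18 of the 52 members were called in BMT against Health, CDSCs against Health and CDSCs against BMT, beside 3.36%, 10.9% and 4.46% of all rows. BMT and CDSCs were both compared with the same Health mice, so their differences from Health are not independent.

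Rows whose groups did not overlap were counted too. In CDSCs against BMT, 6 of 22 members were lower in every CDSCs mouse (Igkv2-107, Igkv6-13, Igkc, Ighg1, Ighv5-9 and Ighv10-3), against 11.5% of all tested rows, and 0 were higher, against 11%. In CDSCs against Health, 5 of 22 were lower in every CDSCs mouse, against 17.5%, and 0 were higher, against 16.7%. Of these 5, Ighv1-85 was not among the rows named by rule and was chosen after its values were seen, and the other 4 were also among the former 6. In BMT against Health, 5 of 22 were higher in every BMT mouse, against 15.2%, and 1, Ighd2-8, was lower, against 13.9%.

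The direction of the diversity rows in CDSCs against BMT turned on the mouse CDSCs 1. With it, all 9 tested diversity rows had values above 0, from 0.17 to 1.40, and all 13 variable and constant rows had values under 0, from -3.25 (Ighv1-85, -0.58 without BMT 3) to -0.43. Without CDSCs 1 all 9 diversity rows were under 0, from -0.91 to -0.05, and the log2 difference of the diversity sum went from 0.58 to -0.38. The sums of the other heavy and kappa classes stayed under 0 without CDSCs 1, at -1.76 for heavy variable, -4.39 for heavy constant, -1.36 for kappa variable and -2.68 for kappa constant rows. The median over the 22 was -0.67, against 0.01 over all tested rows. For CDSCs against Health, 8 of the 9 diversity rows were above 0 (median 1.61; without CDSCs 1, 5 of 9 and median 0.02) and 4 of the 13 others (median -0.64), and for BMT against Health 6 of 9 (median 0.32) and 10 of 13 (median 0.93). Whether the diversity rows share reads was not examined, and they are not counted as independent measurements.

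**Figure D4:**
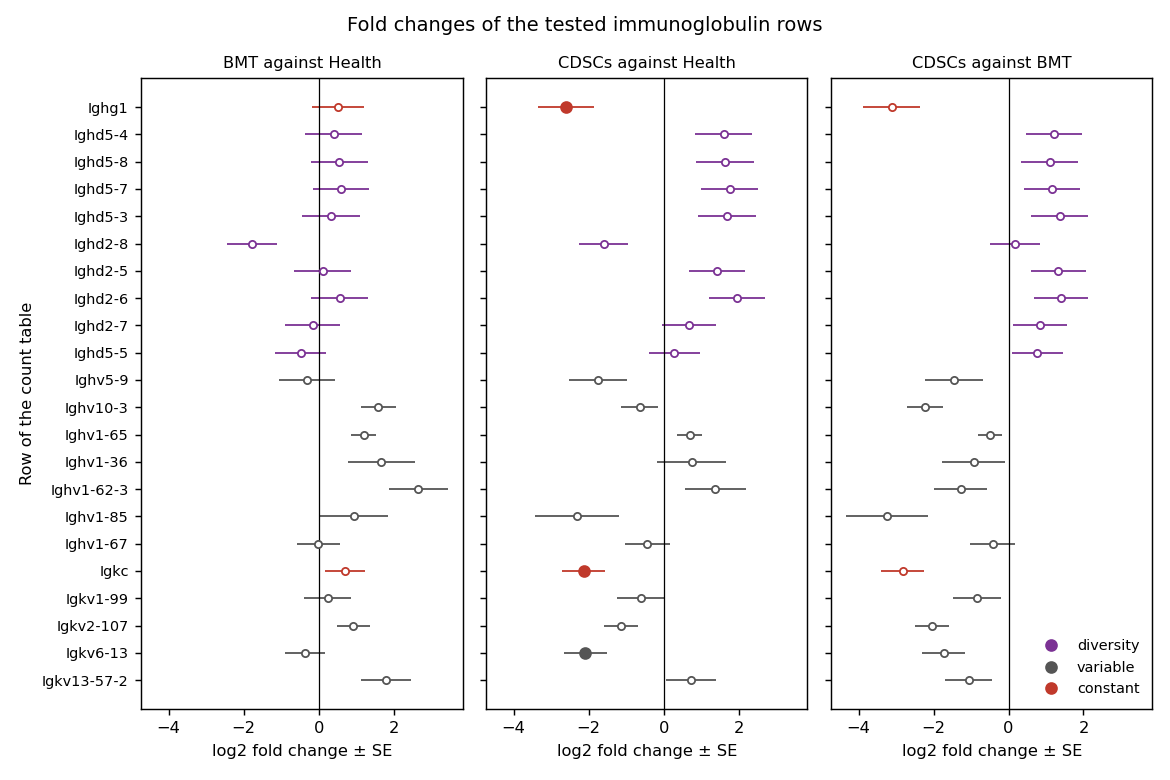
Log2 fold change ± SE of the 22 tested rows in the 3 comparisons (edgeR), with diversity rows in purple, variable rows in grey and constant rows in red; filled points passed the adjusted p of 0.05. In CDSCs against BMT the diversity rows lie right of 0, where they do not lie without CDSCs 1, and all others left, and the filled points are Ighg1, Igkc and Igkv6-13 in CDSCs against Health.

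Genes that act on these loci were described from 5 lists that cover recombination, switching and mutation, partners of the chains on the cell surface, regulators and secretion. The positions of their rows were not examined, so each value is that of the row and may not be the level of the named gene. Of 66 genes in the 5 lists, 13 were at 0 in every mouse, among them Rag1, which cuts the segments for joining, and 36 were tested. In CDSCs against Health 3 were higher and 3 lower by edgeR, 16.7% of the 36 against 17% of all tested rows. In BMT against Health 0 were called (2.44% of all tested rows), with 2 higher and 1 lower at an unadjusted p under 0.05 (16.8%). In CDSCs against BMT 0 were called (1.03%), with 3 higher and 5 lower at an unadjusted p under 0.05 (18.6%).

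In the recombination list 3 of 7 tested rows were called in CDSCs against Health, 42.9% against 17% of all tested rows. Rows named for DNA end-joining factors moved both ways: Lig4, a DNA ligase, fell by 2.50 ± 0.47 on the log2 scale (edgeR adjusted p = 0.00703), Xrcc6 rose by 0.57 ± 0.12 (adjusted p = 0.0127) and Xrcc5 rose by 1.20 ± 0.36 (adjusted p = 0.0445). Xrcc5 and Xrcc6 encode the subunits of Ku. Among the surface partners, Vpreb3, whose product binds heavy chains inside early B-lineage cells, was lower by the same edgeR test (-1.54 ± 0.40, adjusted p = 0.0275). Among the regulators, Stat5b, which signals from the IL-7 receptor, was higher (0.93 ± 0.25, edgeR adjusted p = 0.0317) and the octamer-binding factor Pou2f1 was lower (-0.62 ± 0.18, adjusted p = 0.0428). In the switching list 0 of 3 tested genes and in the secretion list 0 of 9 were called, with 0 and 2 at an unadjusted p under 0.05, where 32.9% of all tested rows were. The lowest p of the secretion list was that of Jchain, which links antibody units (0.94 ± 0.30, edgeR adjusted p = 0.0549).

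T-cell receptor rows, which have the same segment structure and are joined by the same enzymes in T cells, served as a comparison. Their positions were not examined either, so these too are values of rows and may not be levels of the named segments. Of 266 names, 40 had at least 10 counts and 17 were tested. In CDSCs against Health 6 were higher and 1 was lower, 41.2% of the 17 against 17% of all tested rows (8.69% higher, 8.28% lower), and the 6 higher rows have names of joining segments. Traj16 had 102, 86 and 124 counts in BMT, 137, 131 and 284 in CDSCs, and 39, 48 and 51 in Health (1.96 ± 0.35, edgeR adjusted p = 0.00554). Trbv25 had 74, 89 and 146 counts in BMT, 151, 155 and 239 in CDSCs, and 1085, 1244 and 834 in Health (-2.59 ± 0.29, edgeR adjusted p = 0.000549).

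Rows named for other cell types varied beside these values, and as their positions were not examined, their sums may not be levels of the named markers. The 11 B-lineage markers summed to 586 to 1078 CPM in BMT, 466 to 2130 in CDSCs and 680 to 855 in Health. Of these, the row Pax5 had the widest range, from 707 to 15909 counts per mouse, while Cd22 had 2383 to 3450 and Cd79b 659 to 846. The 7 plasma cell markers summed to 16.4 to 20.1, 18.2 to 37.6 and 18.3 to 18.8. The 5 stromal markers summed to 505 to 1642 CPM in BMT, 1024 to 13691 in CDSCs and 146 to 2630 in Health, almost all of it the row Col1a2. The 10 neutrophil markers, of which Camp and S100a8 were at 0, summed to 3.34 to 4.75, 1.83 to 3.30 and 1.48 to 2.73 CPM. Their part in the immunoglobulin values was not tested.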

How the data were processed

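RNA-seq of mouse BM was analysed for 3 BMT, 3 CDSCs and 3 Health mice, grouped by the labels. The authors ran FastQC and MultiQC for read quality, Trim Galore for trimming, HISAT2 for alignment and featureCounts for the counts per gene. The submitters' processing notes name GRCm38, and the annotation and strand setting are not given in the sources used here. The deposited counts are whole numbers per gene. The deposited TPM values were made from them by the authors and scale by row length. No other sample columns are present.

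Counts were tested with edgeR 4.0.16 (R 4.3.3) after filterByExpr and TMM, by glmQLFit and glmQLFTest on all 9 mice, two-sided, with Benjamini-Hochberg adjustment over 12572 rows and a threshold of 0.05. P-values describe the spread between mice. Locus and class sums are CPM over TMM-scaled totals, with the SE of the difference of log2 means, and were not tested. Precision is set by depth, and a floor of 3 counts covers counting error only. Positions were read from GENCODE M21 (GRCm38) with Python 3.11.15, numpy 2.4.6, pandas 2.3.3 and matplotlib 3.10.9. The edgeR test and the position scan were tested on simulated data. Alternatives were DESeq2 1.42.0, the likelihood ratio test, library size, other filters, TPM, the 6 mice compared, a replicate block and each mouse left out.

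Named rows were all constant rows, the 5 variable rows of each locus with the most counts, and the 5 members of lowest p in each comparison. Diversity rows were named as a class, and the position scan was added, after values were seen. The members and lists were chosen with earlier results of these data known. A marker gene of the lists is not reported here.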

Additional observations from a re-analysis of the deposited data

How the results depend on the processing

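The counts of called members moved with the method, and DESeq2 was fitted to all 52 members. In BMT against Health 0 became 3 with DESeq2 or the likelihood ratio test, 2 with only the 6 mice compared (807 of all rows) and 9 of 52 with no filter on low counts (3.36% of all rows), and lay between 0 and 1 with a mouse left out (1 without CDSCs 2, among 256 of all rows). In CDSCs against Health 3 became 18 of 52 with no filter (8 higher, 10 lower; 10.9% of all rows) and lay between 0 and 5 with a mouse left out. In CDSCs against BMT 0 became 5 with the likelihood ratio test, 7 with DESeq2 and 18 of 52 with no filter (6 higher, 12 lower), where these called 730, 571 and 1260 of all rows against 129, and lay between 0 and 2 with a mouse left out (2 without BMT 2 among 19 of all rows, 2 without CDSCs 3 among 491, 1 without BMT 3 among 73 and 1 without CDSCs 1 among 149). With no filter, rows with few counts entered the fit, and the cause of the added calls was not tested. Over the alternatives the adjusted p for CDSCs against Health ranged from 5.90e-14 to 0.101 for Igkc, from 6.40e-10 to 0.102 for Igkv6-13 and from 1.35e-37 to 0.112 for Ighg1, with the lowest values from the fit with no filter. Over all tested rows, same-numbered mice did not deviate together (correlations from -0.34 to 0.22), which does not settle pairing for the sums. With the replicate block 0, 2 and 1 members were called in the 3 comparisons, among 197, 1507 and 22 of all rows. In BMT against Health, CDSCs against Health and CDSCs against BMT, the block changed the SE of the kappa sum from 0.33, 0.28 and 0.35 to 0.44, 0.38 and 0.07. That of the heavy sum went from 0.41, 0.86 and 0.89 to 0.12, 0.86 and 0.80. The heavy sum turned from -0.54 to 0.54 with TPM in CDSCs against Health and from -0.86 to 0.51 in CDSCs against BMT, and without the diversity rows (chosen after seeing the data) it became -1.66 and -2.29. With a mouse left out the heavy sum ranged from 0.09 to 0.65 in BMT against Health, from -1.35 to -0.01 in CDSCs against Health and from -1.67 to -0.33 in CDSCs against BMT. The kappa sum ranged from 0.33 to 0.76, from -1.21 to -0.84 and from -1.81 to -1.32. Without the row with the most counts of each locus, the heavy sum became 0.07 in CDSCs against Health and -0.15 in CDSCs against BMT, the kappa sum -1.32 and -1.90, and the lambda sum 0.84 in CDSCs against Health. With rows chosen by moved position (chosen after seeing the data) the heavy sum was -1.42 and -1.60. The scaling by library size or DESeq2 size factors kept the direction of the heavy and kappa sums in all 3 comparisons.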

Other observations

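Rows without an immunoglobulin name also met immunoglobulin exons when moved by the offset of their locus. They were looked at after the position scan and were chosen after their values were seen, so their values are a description. In the kappa region Gm6157, on Igkv6-15 when moved, had 2254, 1181 and 2773 counts in BMT, 1246, 187 and 399 in CDSCs, and 923, 1446 and 1717 in Health (CDSCs against Health -1.25 ± 0.55 on the log2 scale, edgeR adjusted p = 0.143). Gm9728, which met Igkv1-135 on the opposite strand, had 933, 629 and 2928 counts in BMT, 1474, 277 and 394 in CDSCs, and 1387, 551 and 627 in Health (-0.41 ± 0.68, edgeR adjusted p = 0.713). Either row had more counts than the kappa members together, which had 5991. Gm30211 had 241752 counts, lay inside the kappa locus when moved and spanned the genes Igkv3-1 and Igkv3-2, but met no exon and is not in the sums below.

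In the heavy region Gm5190 and Gm9136 both met Ighg3, an IgG subclass segment, the former on the opposite strand. Gm5190 had 519, 563 and 549 counts in BMT, 511, 102 and 138 in CDSCs, and 381, 536 and 1345 in Health (-1.68 ± 0.56 for CDSCs against Health, edgeR adjusted p = 0.0658). Gm9136 had 305, 270 and 240 counts in BMT, 231, 46 and 69 in CDSCs, and 184, 247 and 633 in Health (-1.70 ± 0.56, edgeR adjusted p = 0.0618). Gm7019, on Ighv1-55 when moved, had 597, 411 and 525 counts in BMT, 366, 241 and 279 in CDSCs, and 576, 323 and 476 in Health (-0.73 ± 0.26, edgeR adjusted p = 0.0809). Gm6105, which met Ighv1-69 on the opposite strand, had 1868 counts over the 9 mice and gave -0.08 ± 0.42 (edgeR adjusted p = 0.906).

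Summed over all rows of any name that met an immunoglobulin exon on either strand when moved, the heavy locus gave 593, 370 and 569 CPM in BMT, 300, 114 and 132 in CDSCs, and 455, 286 and 661 in Health, from 22 rows of which 15 are members. The log2 difference of CDSCs from Health was -1.42 ± 0.56. The kappa locus gave 467, 256 and 670 CPM in BMT, 325, 75.4 and 132 in CDSCs, and 343, 301 and 328 in Health, from 12 rows of which 7 are members, and the difference was -1.13 ± 0.62. In both loci CDSCs 2 and CDSCs 3 were under all other mice, while CDSCs 1 overlapped Health.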
